A study of Mus musculus with 4 samples.

Results

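The transcripts of 36 genes that hepatocytes are known for were followed through droplets of 2 liver libraries, as RNA outside nuclei and as RNA counted in called nuclei. The genes were given as a list of plasma proteins, apolipoproteins, acute phase proteins, cytochrome P450 enzymes, bile transporters and metabolic enzymes, and all 36 were found among the 32285 genes of the files. No hepatocyte was a target of the experiment. Cells of C57BL/6J mouse liver were sorted as alive, CD45+, CD64- and CD11c+ leukocytes, and their nuclei were profiled for RNA and open chromatin in the same droplets (10x Multiome). One library came from mice that had received DDC (3,5-diethoxycarbonyl-1,4-dihydrocollidine) for 0 days (D0), and the other from mice on chow with 0.1% DDC for 5 days (D5). DDC injures bile ducts and is used as a model of cholestasis. Each day was 1 library, so no test between the days was possible. Every interval below is a 95% interval that covers counting error and nothing else, and the effect of the diet cannot be told apart from any other difference between the libraries.

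Hepatocytes secrete most plasma proteins, so that mRNAs such as those of albumin and the apolipoproteins are very abundant in them. When liver is dissociated, broken cells release such mRNAs into the suspension, and droplets without a nucleus then capture them with other free RNA. The acute phase genes are known to rise in hepatocytes during inflammation, and bile acids are known to repress the P450 enzymes of bile acid synthesis.

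Promoters are shown for 4 members, of which the results turn on Alb, Cyp8b1 and Ass1 but not on Fgb. They let the reader see which of the 4 carry letters of liver-type motifs. RefSeq promoters were found for 26 of the members whose sequence may be shown, and the 250 bases before the start site were read (build GRCm38.p6, the mm10 assembly, 5′ to 3′ on the strand of the gene). Capitals mark GTTAAT (the half-site of HNF1, a hepatocyte factor), TTGCNNAA (C/EBP) and GAGGAA (the core bound by PU.1, a leukocyte factor), each searched on both strands, so that a match on the opposite strand is printed as its complement. No 2 matches overlap in the promoters shown. Alb encodes albumin and lies at chr5:90460620-90460869 on the plus strand, Fgb encodes the fibrinogen beta chain at chr3:83049864-83050113 on the minus strand, Cyp8b1 encodes sterol 12-alpha-hydroxylase of bile acid synthesis at chr9:121916306-121916555 on the minus strand, and Ass1 encodes argininosuccinate synthase of the urea cycle at chr2:31470020-31470269 on the plus strand.
Alb: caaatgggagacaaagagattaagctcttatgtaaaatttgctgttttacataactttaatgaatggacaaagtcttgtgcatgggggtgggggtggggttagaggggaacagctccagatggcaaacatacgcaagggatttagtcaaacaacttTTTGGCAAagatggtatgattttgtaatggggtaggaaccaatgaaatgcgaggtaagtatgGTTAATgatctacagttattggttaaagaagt
Fgb: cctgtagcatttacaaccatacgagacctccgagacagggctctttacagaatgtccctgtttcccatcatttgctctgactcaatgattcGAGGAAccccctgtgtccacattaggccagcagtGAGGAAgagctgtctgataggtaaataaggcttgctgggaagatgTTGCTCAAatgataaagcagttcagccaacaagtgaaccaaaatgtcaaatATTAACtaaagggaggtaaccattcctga
Cyp8b1: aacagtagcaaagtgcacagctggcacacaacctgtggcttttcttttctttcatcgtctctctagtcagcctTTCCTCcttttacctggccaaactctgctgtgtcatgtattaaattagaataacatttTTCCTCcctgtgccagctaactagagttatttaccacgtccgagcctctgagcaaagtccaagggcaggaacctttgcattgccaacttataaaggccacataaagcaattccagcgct
Ass1: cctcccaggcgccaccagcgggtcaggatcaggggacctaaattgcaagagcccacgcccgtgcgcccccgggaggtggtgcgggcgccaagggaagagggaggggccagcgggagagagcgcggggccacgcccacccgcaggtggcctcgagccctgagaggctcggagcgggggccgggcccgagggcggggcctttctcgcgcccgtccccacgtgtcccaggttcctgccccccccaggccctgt
The HNF1 letters stood in 8 of the 26 member promoters (30.8%) and in 6.43% of all 32851 promoters read over the same length. The C/EBP letters stood in 10 (38.5%) against 9.56%, and the GAGGAA letters in 5 (19.2%) against 23.3%. Near-identical promoters were each counted: Serpina1a, Serpina1b and Serpina1c for HNF1, and Saa1 and Saa2 for C/EBP. The RefSeq start site lay 17680 bases from that of the files for Cyp2c29 and 738 bases for Ahsg. The Alb and Fgb promoters held an HNF1 and a C/EBP match each. Cyp8b1 held GAGGAA in 2 places on the opposite strand (printed as TTCCTC), Fgb also held GAGGAA in 2 places, and Ass1 held none of the 3 motifs. A match is a description of the letters and not a site that was shown to be bound.

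Free RNA was taken as the RNA of barcodes with 1 to 99 UMIs (unique molecular identifiers, each standing for 1 captured RNA molecule). At D0 this was 618446 barcodes with 2578184 UMIs, and at D5 657961 barcodes with 5393491 UMIs. Their median was 3 UMIs at D0 and 7 at D5, and whether each of these barcodes was a droplet was not tested. None of them was among the 16260 and 27873 called barcodes. The members held 796 of these UMIs at D0 and 1372 at D5, or 309 and 254 CPM (UMIs of a gene scaled so that all genes of a fraction have the same total), so that they made up 0.0309% and 0.0254% of the free RNA. Summed markers of cDC1 (type 1 conventional dendritic cells) held more of it, with 2120 and 1171 CPM, as did NK cell markers, with 3195 and 1001 CPM. Markers of cDC2, pDC, nonclassical monocytes and Ccr7+ DC (other dendritic and monocytic cells) also held more than the members on both days, at 470 to 1465 CPM. T cell markers held more at D0 (555 CPM) and less at D5 (227 CPM). Markers of B cells (284 and 141 CPM), macrophages (210 and 203 CPM) and neutrophils (30.3 and 164 CPM) held less on both days. This order is that of sums over lists of unlike size, 36 members against 6 to 9 markers. It also rests on Trf and Ass1, since the other 34 members held 128 and 63.0 CPM. That was less than T cell, B cell and macrophage markers on both days, and less than neutrophil markers at D5. Of the 36 members, 33 had at least 1 UMI in free RNA at D0 and 31 at D5.

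Trf and Ass1 held 465 of the 796 member UMIs at D0 (58.4%) and 1032 of 1372 at D5 (75.2%). Trf encodes transferrin, the iron carrier of plasma. Trf had 333 UMIs in free RNA at D0 and 528 at D5, or 129 and 97.9 CPM, and 133 and 111 CPM in called nuclei. Ass1 had 132 and 504 UMIs in free RNA, or 51.2 and 93.4 CPM, and 52.6 and 87.4 CPM in called nuclei. Both genes thus stood at about the same level in free RNA and in nuclei, with the summed level in nuclei at 103% (93.7 to 113) of free RNA at D0 and 104% (97.6 to 111) at D5. Against deeper barcodes without a called nucleus it was at 99.3% (94.5 to 104) at D0 and 121% (116 to 127) at D5, so above equal levels at D5. Because 1 pair of genes set most of the sum, sums are also given for the 34 members without Trf and Ass1, a split that was made after the values had been seen.

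The 34 genes were lower in free RNA at D5. They held 331 UMIs at D0 and 340 at D5, or 128 CPM (115 to 143) and 63.0 CPM (56.5 to 70.1), and the log2 ratio of D5 over D0 was -1.03 (-1.25 to -0.80). For all 36 members it was -0.28 (-0.41 to -0.15). Most genes of the libraries shifted the same way: across the 10875 genes with at least 20 UMIs over both days, the median log2 ratio was -0.38 and 79.1% of the genes were lower. TMM factors, which centre such shifts, raised every free RNA ratio by 0.44, to -0.59 (-0.81 to -0.36) for the 34 genes and 0.16 (0.03 to 0.29) for all 36. In free RNA the direction of the 36-gene sum therefore turned with the scaling, and that of the 34-gene sum did not. In barcodes of 100 to under 500 UMIs the 34-gene sum turned as well, from -0.49 (-0.60 to -0.37) to 0.09 (-0.03 to 0.20), and in nuclei it went from -0.59 (-0.65 to -0.52) to -0.09 (-0.15 to -0.02).

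Only 13 members reached 20 UMIs in free RNA, and of these 11 were lower and 2 higher at D5, with a median log2 ratio of -0.94 (interval of that member, -1.45 to -0.42). In free RNA of 10 to 99 UMIs the median was -0.01 (-1.53 to 1.96), and with TMM factors -0.50 (-1.01 to 0.02). At least 2-fold lower were 5 (Ttr, Apoa1, Apoa2, Cyp8b1 and Mup3), beside 12.8% of all genes tested, and at least 2-fold higher were 0, beside 0.736%. A member passed this minimum only through being abundant on 1 of the days at least, so the 13 do not stand for all members.

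The level of the 34 genes was then followed from the emptiest to the fullest barcodes, since the choice of barcodes decides what counts as free RNA. At D0 the level was 128 CPM in barcodes of 1 to 9 UMIs, 129 CPM at 10 to 99, 132 CPM at 100 to under 200 and 149 CPM at 200 to under 500 UMIs that were not called, and it was 71.0 CPM (66.0 to 76.2) in called nuclei of 1000 to under 2000 UMIs. At D5 it was 57.7 CPM at 1 to 9 and 67.3 CPM at 10 to 99 UMIs, 122 CPM (88.7 to 163) at 100 to under 200 and 96.2 CPM (90.7 to 102) at 200 to under 500 UMIs, and 50.4 CPM (45.8 to 55.4) in nuclei of 1000 to under 2000 UMIs. In the shallowest called nuclei, of 500 to under 1000 UMIs, the days were in the other order, at 89.7 CPM (75.3 to 106) at D0 and 109 CPM (88.7 to 133) at D5, with overlapping intervals. At D0 the level was thus flat below 200 UMIs, and at D5 it was higher in barcodes of 200 to under 500 UMIs than below 100. The same limits fell differently in the 2 libraries. At D0 51064 barcodes that were not called had 100 to under 200 UMIs and 8334 had 200 to under 500, against 2333 and 41267 at D5. The barcodes of 100 to under 500 UMIs that were not called held more member UMIs than the free RNA did, 3299 at D0 and 3293 at D5. Their median peak count in the chromatin layer was 139 at D0 and 93 at D5, against 2 in free RNA on both days and 9334 and 7411 in called nuclei, so they lay between free RNA and nuclei in this measure. Malat1, an RNA of the nucleus that was added after its values were seen, did not place them between. It was at 2491 CPM at D0 and 582 CPM at D5 in them, against 4170 and 1761 CPM in free RNA. In called nuclei it was at 24864 and 11134 CPM. How much of the RNA in barcodes of 100 to under 500 UMIs came from nuclei was not tested.

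**Figure D1:**
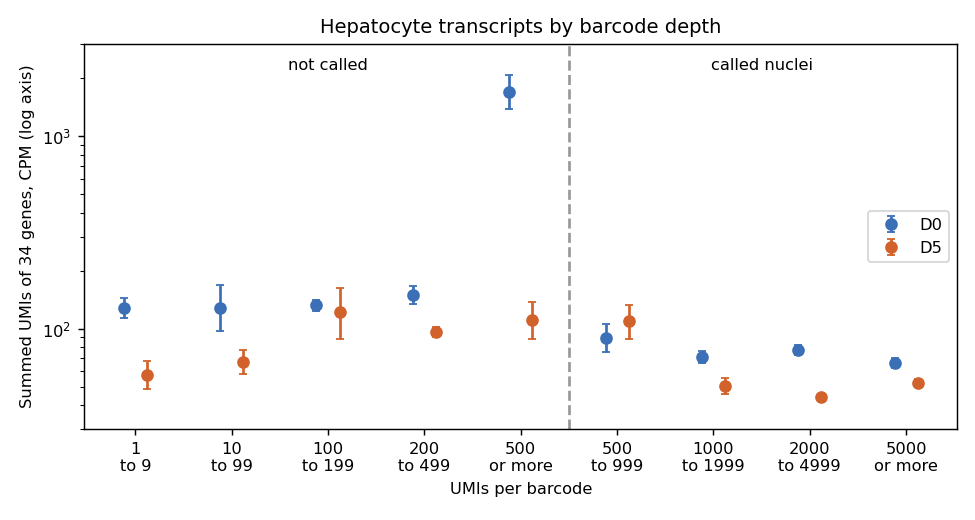
Summed CPM of the 34 members (log axis) in barcodes grouped by their number of UMIs, for D0 and D5, with points for the level and bars for the 95% counting interval. Called nuclei of 1000 UMIs or more lie between 44.0 and 77.5 CPM, D0 above D5, those of 500 to under 1000 UMIs at 89.7 CPM (D0) and 109 CPM (D5), and the 71 barcodes of 500 UMIs or more that were not called at D0 stand at 1697 CPM.

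In the barcodes of 100 to under 500 UMIs 29 members reached the minimum. Of these 20 were lower and 9 higher at D5, where 85.5% of all 12525 genes tested were lower. The median log2 ratio of the members was -0.39, beside -0.50 over all genes. At least 2-fold lower were 8, beside 19.6% of all genes, and at least 2-fold higher was 1, Cyp2c29, beside 0.663%. In called nuclei 33 members reached the minimum, 19 lower and 14 higher, where 78.1% of 17645 genes were lower. Their median was -0.32, beside -0.43 over all of these genes. There 7 were at least 2-fold lower, beside 21.4%, and 2 were at least 2-fold higher, Cyp3a11 and Cyp2c29, beside 1.21%. The share of members that were 2-fold lower in nuclei was therefore near that of all genes. With TMM factors the ratios rose by 0.57 in the barcodes of 100 to under 500 UMIs and by 0.50 in nuclei, and 7 of 29 and 5 of 33 members changed direction. In the barcodes of 100 to under 500 UMIs 16 members were then higher and 13 lower at D5. In nuclei 19 were higher and 14 lower, while in free RNA 4 were higher and 9 lower. The share of all genes that were higher with TMM factors was not counted. These factors centre the ratios, so the splits are not read as a rise of the members.

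Of the plasma carriers, Trf, Alb and Ttr were lower at D5 in all 3 fractions when scaled to CPM. The log2 ratio of Trf was -0.40 (-0.60 to -0.20) in free RNA. In barcodes of 100 to under 500 UMIs Trf had 1276 and 1042 UMIs, or 125 and 82.6 CPM (-0.60, -0.72 to -0.48), and in nuclei 5918 and 10516 UMIs (-0.26, -0.30 to -0.21). TMM factors turned Trf to 0.04 (-0.16 to 0.24) in free RNA and to 0.25 (0.20 to 0.29) in nuclei, and gave -0.03 (-0.14 to 0.09) in between. Alb had 64 UMIs in free RNA at D0 and 70 at D5, or 24.8 and 13.0 CPM, a log2 ratio of -0.94 (-1.45 to -0.42). In barcodes of 100 to under 500 UMIs Alb had 290 and 249 UMIs, or 28.3 and 19.7 CPM, and in nuclei 511 and 696 UMIs, or 11.5 and 7.37 CPM, with log2 ratios of -0.52 (-0.77 to -0.27) and -0.64 (-0.81 to -0.47). With TMM factors the ratio turned to 0.05 in the middle fraction and was -0.50 and -0.14 in the others, and all 3 intervals then included 0. Ttr, which encodes the thyroid hormone carrier transthyretin, had 21 UMIs at D0 and 11 at D5 in free RNA, a log2 ratio of -2.00 (-3.20 to -0.88), and in nuclei it was -0.70 (-1.02 to -0.39). With TMM factors Ttr stayed lower in free RNA at -1.56 (-2.76 to -0.44), but was at -0.20 in barcodes of 100 to under 500 UMIs (-0.72 to 0.31) and in nuclei (-0.52 to 0.12). Gc, Ambp and Ahsg had 1 to 7 UMIs each in free RNA, and their CPM intervals included 0 in all 3 fractions. With TMM factors, intervals lay above 0 for Ahsg in nuclei (0.77, 0.30 to 1.26) and for Ambp in nuclei (0.77, 0.15 to 1.42) and in barcodes of 100 to under 500 UMIs (1.09, 0.05 to 2.19). The Ahsg interval takes its UMIs as independent, but its 133 UMIs at D5 lay in 68 nuclei, and its 52 at D0 in 44. The share of nuclei with Ahsg was not higher at D5, at 0.271% at D0 and 0.244% at D5.

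Of the apolipoproteins, those of high-density lipoprotein were lower in all 3 fractions. Apoa1 had 18 UMIs at D0 and 16 at D5 in free RNA (6.98 and 2.97 CPM), and its log2 ratios were -1.24 in free RNA, -1.03 in barcodes of 100 to under 500 UMIs and -0.96 in nuclei. Apoa2 had 30 and 18 UMIs (11.6 and 3.34 CPM), with 98 and 79 UMIs in barcodes of 100 to under 500 UMIs and 243 and 281 in nuclei, and with ratios of -1.80, -0.61 and -0.88. All 6 intervals lay below 0. With TMM factors all 6 ratios stayed below 0, but the intervals of Apoa1 in free RNA (-1.86 to 0.26) and of Apoa1 (-1.11 to 0.17) and Apoa2 (-0.49 to 0.40) in barcodes of 100 to under 500 UMIs then included 0. Apoc1, a small apolipoprotein that macrophages also make, went different ways: it had 30 and 34 UMIs in free RNA (11.6 and 6.30 CPM; log2 ratio -0.88, -1.64 to -0.13) and 123 and 351 UMIs in nuclei (2.76 and 3.72 CPM; 0.43, 0.13 to 0.74). In barcodes of 100 to under 500 UMIs Apoc1 had 99 and 146 UMIs (9.68 and 11.6 CPM; 0.26, -0.12 to 0.64). With TMM factors its interval in free RNA included 0 (-1.20 to 0.31). Apoc3 and Apoh, with 8 UMIs or fewer on either day in free RNA, were lower in nuclei by CPM, at -0.67 (-1.15 to -0.19) and -0.95 (-1.60 to -0.29), but not with TMM factors, at -0.17 (-0.64 to 0.32) and -0.44 (-1.10 to 0.21). Apob, the large apolipoprotein of very low-density lipoprotein, had 5 and 1 UMIs in free RNA, and 43 and 67 in nuclei with an interval of -1.02 to 0.14.

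The acute phase genes were few in every fraction. Summed over the 8 genes, free RNA held 37 UMIs at D0 and 44 at D5, or 14.4 and 8.16 CPM, and nuclei held 7.17 and 7.45 CPM, a log2 ratio of -0.81 (-1.48 to -0.14) in free RNA and of 0.06 (-0.14 to 0.25) in nuclei. Both depended on the scaling: with TMM factors the interval in free RNA included 0 (-0.38, -1.04 to 0.30), and the sum was higher at D5 in nuclei, at 0.56 (0.37 to 0.75), and in barcodes of 100 to under 500 UMIs, at 0.49 (0.13 to 0.85), where it had been at -0.08 (-0.44 to 0.28) by CPM. Hp, which encodes the haemoglobin scavenger haptoglobin and is also made by neutrophils and monocytes, had 11 and 17 UMIs in free RNA and 122 and 261 in nuclei, at 2.74 and 2.77 CPM, a ratio that TMM factors raised to 0.52 (0.20 to 0.84). Hpx, the haem carrier hemopexin, was higher at D5 beyond its interval in barcodes of 100 to under 500 UMIs (0.80, 0.02 to 1.62) and in nuclei (0.74, 0.27 to 1.22), with either scaling. In free RNA it was not, with 8 and 11 UMIs and a ratio of -0.605 (-2.05 to 0.91), or -0.17 (-1.62 to 1.35) with TMM factors. Fga, Fgb and Fgg, the 3 chains of fibrinogen, had 13 and 11 UMIs together in free RNA and were at 2.58 and 1.99 CPM in nuclei. Orm1, an acid glycoprotein of plasma, had 3 and 4 UMIs in free RNA. The serum amyloid genes Saa1 and Saa2 had 2 UMIs together at D0 and 1 at D5 in free RNA, with a log2 interval of -7.95 to 2.20. In nuclei they had 13 and 29 UMIs together, or 0.292 and 0.307 CPM (0.07, -0.92 to 1.14).

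The serpins, protease inhibitors of plasma, were lower as a group in all 3 fractions, and Serpina3k had the lowest ratio among them. In free RNA Serpina1b went the other way, with 2 UMIs at D0 and 9 at D5 and an interval that included 0. Serpina3k had 13 UMIs at D0 and 2 at D5 in free RNA, 62 and 21 in barcodes of 100 to under 500 UMIs, and 123 and 78 in nuclei, with log2 ratios of -3.77, -1.87 and -1.74. The 3 alpha-1-antitrypsin genes Serpina1a, Serpina1b and Serpina1c share much of their sequence, so the counting can split or drop their reads and their separate values are uncertain. Summed with Serpina3k they gave -1.35 (-2.12 to -0.58) in free RNA and -1.25 (-1.46 to -1.03) in nuclei, and -0.91 (-1.68 to -0.14) and -0.75 (-0.96 to -0.53) with TMM factors.

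Cyp8b1 was the P450 enzyme with the lowest ratio in nuclei. It had 19 UMIs in free RNA at D0 and 5 at D5 (7.37 and 0.927 CPM), 71 and 9 in barcodes of 100 to under 500 UMIs, and 205 and 75 in nuclei (4.61 and 0.795 CPM). Its log2 ratios were -2.99 (-4.77 to -1.52), -3.28 (-4.47 to -2.28) and -2.54 (-2.94 to -2.15), the lowest of the members that passed the minimum in each fraction. Cyp7a1, the rate-limiting enzyme of bile acid synthesis, had 1 UMI in all, in a D0 barcode of 100 to under 500 UMIs, and 0 in nuclei, which allows up to 0.0674 CPM at D0 and 0.0318 CPM at D5. The drug-metabolising Cyp3a11 and Cyp2c29 were rare in free RNA, with 7 and 9 UMIs for Cyp3a11 (log2 ratio -0.70, -2.30 to 0.96) and 0 and 4 for Cyp2c29. They were higher at D5 in nuclei, with 18 and 89 UMIs for Cyp3a11 (log2 ratio 1.22, 0.48 to 2.04) and 4 and 35 for Cyp2c29 (2.05, 0.56 to 4.00). In barcodes of 100 to under 500 UMIs Cyp2c29 had 7 and 25 UMIs (1.53, 0.28 to 2.99) and Cyp3a11 34 and 33 UMIs (-0.35, -1.08 to 0.39). Cyp2e1, which oxidises ethanol, was lower in the same barcodes (14 and 3 UMIs) and in nuclei (25 and 14 UMIs).

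Bile transport rested on Slc10a1, the bile acid uptake carrier NTCP. Slc10a1 had 9 and 12 UMIs in free RNA and 14 and 7 in barcodes of 100 to under 500 UMIs, but 375 and 293 in nuclei, at 8.43 and 3.10 CPM (log2 ratio -1.44, -1.67 to -1.22). It stood in nuclei at 616% (362 to 1137) at D0 and 560% (268 to 1405) at D5 of its level in the barcodes of 100 to under 500 UMIs. No other member that passed the minimum was at least 2-fold higher against those barcodes on both days. The share of all genes that were so was not counted, but their median log2 was 0.74 at D0 and 1.02 at D5. Against free RNA Slc10a1 stood at 241% (126 to 532) and 140% (78.7 to 273), and the interval at D5 included equal levels. The median of all genes was there at a log2 of 0.46 and 0.57, so the typical gene also stood above equal levels. Abcb11, the bile salt export pump, had 0 UMIs in free RNA on both days and 9 and 23 in nuclei. Among the metabolic genes Ass1 was higher at D5 in free RNA (0.87, 0.59 to 1.16), in barcodes of 100 to under 500 UMIs (636 and 1028 UMIs, or 62.2 and 81.4 CPM; 0.39, 0.25 to 0.54) and in nuclei (2340 and 8248 UMIs; 0.73, 0.67 to 0.80), while Cps1, which opens the urea cycle, and Pck1 of gluconeogenesis had 2 UMIs or fewer each on either day in free RNA.

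The 2 major urinary proteins, carriers of pheromones that belong to a family of near-identical genes, moved apart. Mup3 had 13 and 11 UMIs in free RNA, 86 and 29 in barcodes of 100 to under 500 UMIs and 182 and 136 in nuclei, with log2 ratios of -1.31, -1.87 and -1.51, each interval below 0. With TMM factors Mup3 was at -0.87 in free RNA with an interval that included 0 (-2.17 to 0.41), and stayed lower in the other fractions at -1.30 (-1.96 to -0.68) and -1.002 (-1.33 to -0.67). Mup20 had 18 and 49, 82 and 155, and 172 and 521 UMIs, with 0.38 (-0.43 to 1.25), 0.62 (0.22 to 1.02) and 0.51 (0.26 to 0.77). Reads of other Mup genes could count towards either.

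**Figure D2:**
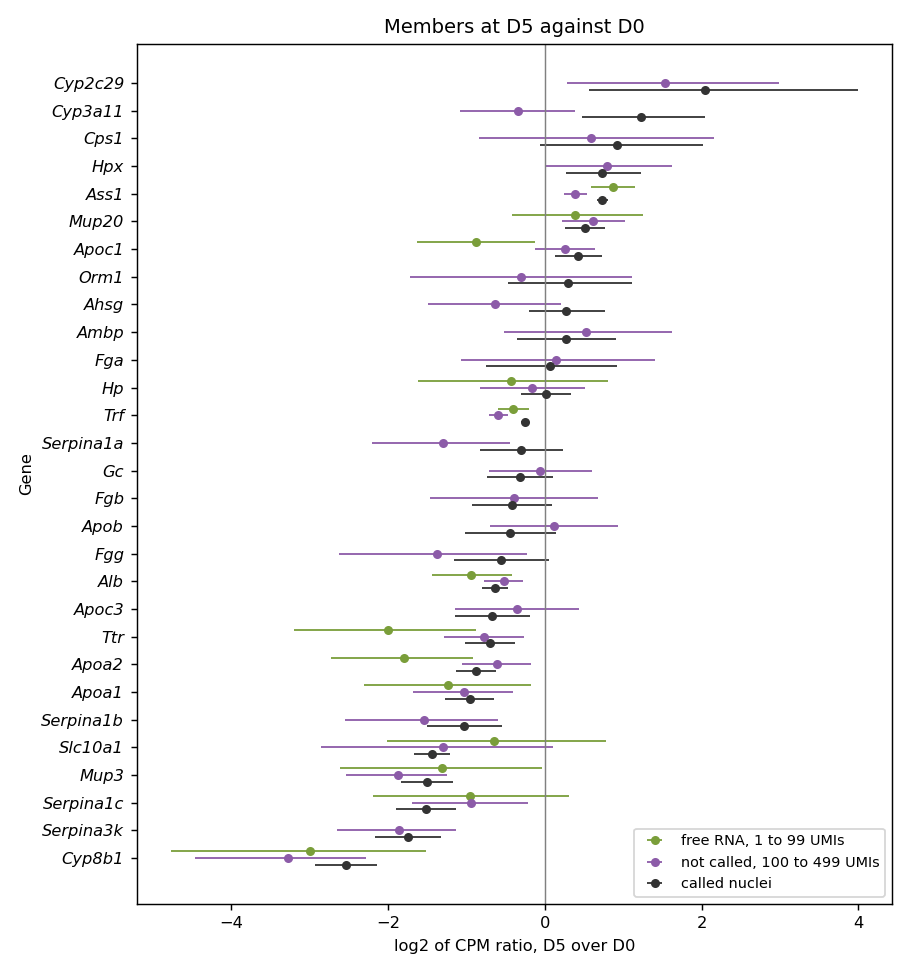
Log2 ratio of CPM, D5 over D0, for the 29 members with at least 20 UMIs in barcodes of 100 to under 500 UMIs, in 3 fractions, with points for the ratio (shown where the fraction itself had 20 UMIs) and bars for the 95% counting interval. Cyp8b1 is lowest in nuclei at -2.54, and Cyp2c29 highest at 2.05.

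To set called nuclei beside the free RNA, the level in nuclei was taken relative to the free level of the same day. RNA that the nuclei made themselves also enters this ratio, so it does not measure how much free RNA reached them. For all 36 members it was 83.5% (77.7 to 89.8) at D0 and 97.0% (91.9 to 103) at D5. For the 34 genes it was 56.2% (50.2 to 63.1) and 76.2% (68.2 to 85.3). Against the barcodes of 100 to under 500 UMIs the 34 genes stood at 53.2% (49.96 to 56.7) and 49.5% (46.5 to 52.8), so for these 34 genes the days were apart against free RNA alone. For all 36 members they were apart against the barcodes of 100 to under 500 UMIs too, at 79.9% (76.9 to 83.1) and 94.6% (91.2 to 98.2). Against free RNA 13 of 29 members were at least 2-fold lower in nuclei at D0, beside 5.84% of all genes tested, and 2 of 31 at D5, beside 2.23%. At least 2-fold higher were 2 at D0 and 5 at D5, and the share of all genes that were so was not counted. Nuclei and free RNA met the minimum together, so free RNA could hold few UMIs, such as 3 each of Orm1 and Fga at D0 and 1 each of Apob and Fga at D5. These counts are therefore not compared between the days. Against the barcodes of 100 to under 500 UMIs 15 of 29 members were at least 2-fold lower at D0, beside 6.43%, and 15 of 32 at D5, beside 3.55%. The median member was then at a log2 of -1.04 at D0 and -0.82 at D5, where the median of all genes was 0.74 and 1.02.

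By role, the drug-metabolising P450 genes were lowest in nuclei, at 19.6% (13.0 to 29.5) of the level in barcodes of 100 to under 500 UMIs at D0 and 30.3% (22.2 to 41.6) at D5. The carriers without Trf were at 42.0% and 41.5%, the apolipoproteins at 48.996% and 41.4%, the serpins at 50.9% and 57.2%, the major urinary proteins at 48.4% and 47.8%, and the acute phase genes at 60.6% and 66.7%. The intervals of these 6 groups overlapped between the days. For the nitrogen and glucose genes, of which Ass1 held most UMIs, they did not, at 83.6% (76.6 to 91.4) and 107% (99.9 to 114).

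**Figure D3:**
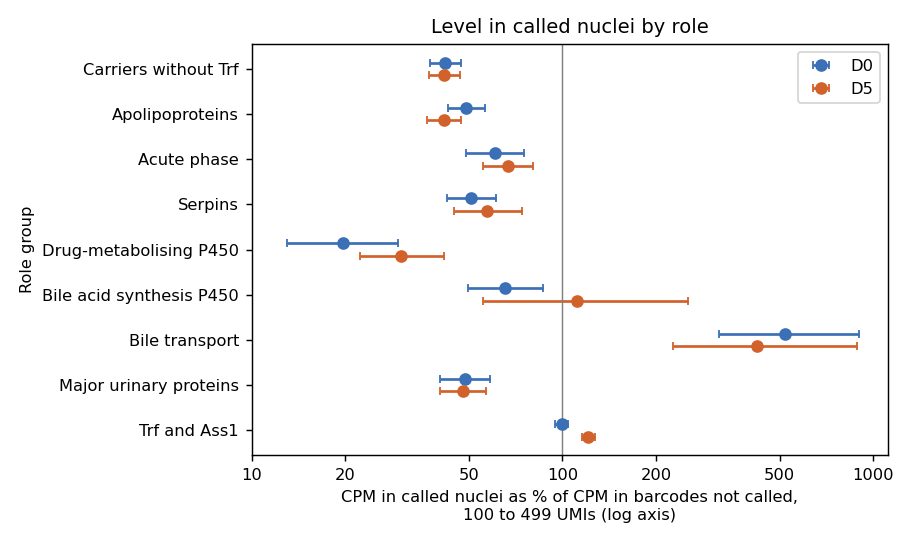
CPM in called nuclei as a percentage of CPM in barcodes of 100 to under 500 UMIs that were not called (log axis), by role group and day, with bars for the 95% counting interval and a line at equal levels. The carriers without Trf stand at 42.0% and 41.5%, and bile transport, led by Slc10a1, at 519% and 423%.

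Per nucleus the amounts were small. Any member was seen in 36.9% (36.2 to 37.7) of called nuclei at D0 and 46.0% (45.4 to 46.6) at D5, where the median depth was 1799 and 2790 UMIs. Thinned to 1000 UMIs, which left out 1978 shallower nuclei at D0 and 1240 at D5, the shares were 20.3% and 19.9%. Without Trf and Ass1 they were 12.7% and 11.9% as counted and 5.98% and 4.15% after thinning. Alb was seen in 2.42% (2.19 to 2.67) of nuclei at D0 and 2.07% (1.91 to 2.24) at D5, and in 1.08% and 0.650% after thinning. A few nuclei held much more: 2 at D0 and 4 at D5 had at least 50 UMIs of the 34 genes, and these 4 held 9.58% of all such UMIs in nuclei at D5. The highest, at D5, had 223 UMIs of the 34 genes, 37 of them from Alb, 25 UMIs of Cps1 and 286 UMIs of other hepatocyte genes among its 12825 UMIs.

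Called nuclei were grouped into classes to see whether the transcripts were spread evenly over them. After removal of shallow nuclei and likely doublets, 10982 nuclei at D0 and 19832 at D5 fell into 19 clusters, made without the members or other hepatocyte genes, and 6 clusters stayed unnamed. The 34 genes stood at 47.4 and 24.1 CPM in cDC1-like nuclei at D0 and D5, at 38.9 and 31.5 CPM in pDC-like (plasmacytoid dendritic cell), at 41.1 and 23.7 CPM in NK cell-like and at 33.8 and 22.4 CPM in T cell-like nuclei. They stood at 102 and 57.2 CPM in cDC2-like and at 289 and 147 CPM in macrophage-like nuclei, although the sort had left out cells with CD64, a macrophage marker. Ccr7+ DC-like (mature dendritic cell) nuclei were at 110 and 55.7 CPM and nonclassical monocyte-like nuclei at 82.0 and 107 CPM, where Hp alone made up 1 of 13 and 23 of 37 UMIs. Neutrophil-like nuclei at D5 were at 243 CPM (40 UMIs in 86 nuclei), 4.90-fold (3.49 to 6.69) above the rest, with 21 of the 40 UMIs from Hp, and were only 4 nuclei at D0. Endothelial-like nuclei were at 177 CPM at D0 (13 UMIs in 30 nuclei), and at D5 2 of their 4 nuclei held 281 of 282 UMIs. One of these is the nucleus described above with 223 UMIs of the 34 genes, 25 UMIs of Cps1 and 286 UMIs of other hepatocyte genes, so the D5 value of this class is not read as an endothelial level. Macrophage-like nuclei were 5.10-fold (4.54 to 5.72) above all other kept nuclei at D0 and 3.16-fold (2.80 to 3.56) at D5. Without the 17 and 9 of them that held 5 or more UMIs of the 34 genes, their level was 217 and 121 CPM. The macrophage-like class thus differed from all other kept nuclei beyond counting error on both days. Its median depth was 1821 UMIs at D0 and 2748 at D5, against 1220 and 1734 in NK cell-like nuclei.

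Single members differed between classes as well. Alb was at 55.4 and 20.8 CPM in macrophage-like nuclei and at 5.32 and 3.57 CPM in cDC1-like nuclei at D0 and D5. Apoc1 was at 14.98 and 32.6 CPM in macrophage-like nuclei, and at 2.43 and 2.91 CPM in all others. Hp was at 39.7 and 19.9 CPM in macrophage-like nuclei, at 66.8 CPM in nonclassical monocyte-like and at 128 CPM in neutrophil-like nuclei at D5 (21 UMIs in 86 nuclei), and at 0.425 and 0.424 CPM in cDC1-like nuclei. Cyp8b1 was highest in cDC1-like nuclei, with 60 UMIs at D0 and 33 at D5, or 12.8 and 2.80 CPM, which was 4.13-fold (2.83 to 6.04) and 10.2-fold (5.12 to 21.6) above all other kept nuclei. At D0 an unnamed cluster came next at 9.18 CPM (32 UMIs), with an interval that overlapped that of cDC1-like nuclei. In that cluster 6 cDC1 markers and 4 NK cell markers were raised 2-fold, and its median depth at D0 was 1.97 times that of all kept nuclei. Whether it held doublets was not tested. In free RNA Cyp8b1 had been at 7.37 and 0.927 CPM. Ass1 was at 164 and 201 CPM in Ccr7+ DC-like nuclei and at 16.7 and 25.5 CPM in NK cell-like nuclei. For Slc10a1 no class was above all other kept nuclei beyond its interval on either day. At D0 it was at 7.55 CPM in cDC2-like, 7.77 CPM in pDC-like, 6.86 CPM in NK cell-like and 9.74 CPM in macrophage-like nuclei, and at 11.7 CPM in Ccr7+ DC-like nuclei (1.63-fold, 0.69 to 3.28). The cDC1-like nuclei, at 5.10 CPM, were below the rest at D0 (0.645-fold, 0.400 to 0.998).

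**Figure D4:**
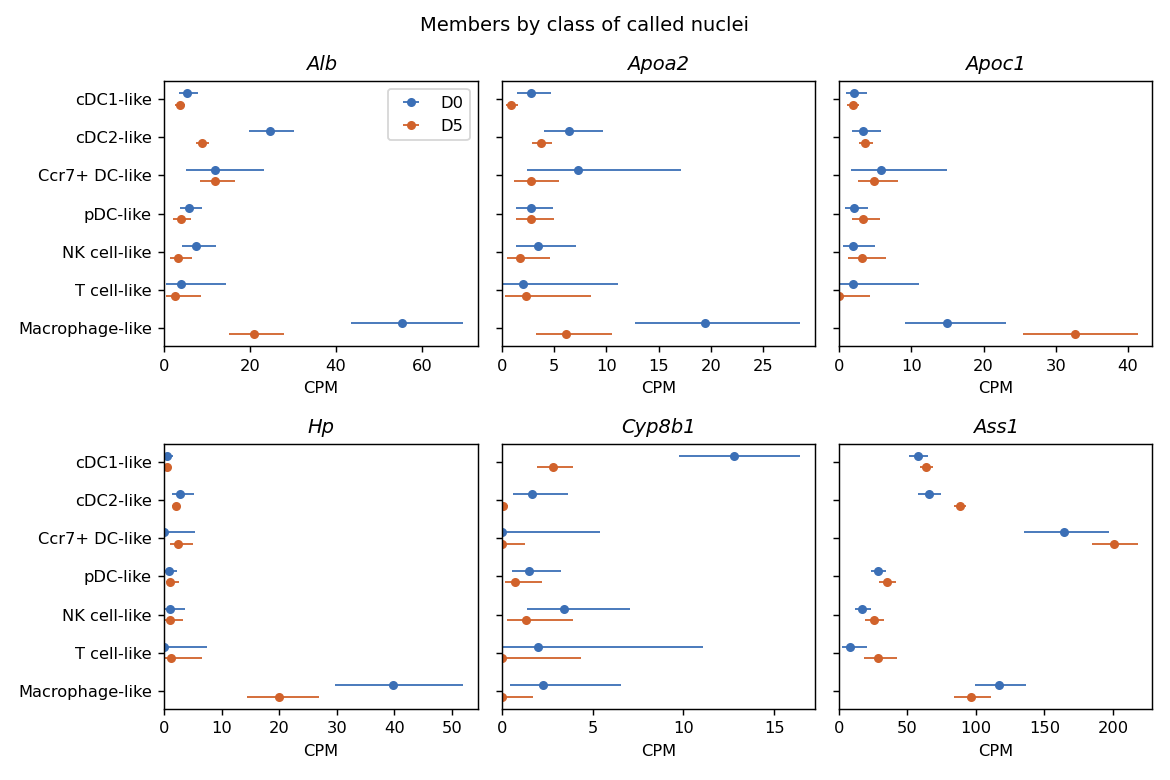
CPM of 6 members in 7 classes of called nuclei (cDC1-like, cDC2-like, Ccr7+ DC-like, pDC-like, NK cell-like, T cell-like and macrophage-like) at D0 and D5, with points for the level and bars for the 95% counting interval; each panel has its own axis from 0. Among these 7, Alb, Apoa2, Apoc1 and Hp are highest in macrophage-like, Cyp8b1 in cDC1-like and Ass1 in Ccr7+ DC-like nuclei. Small classes that are not drawn were higher in places, such as neutrophil-like nuclei at D5 for Hp (128 against 19.9 CPM) and endothelial-like nuclei at D0 for Apoa2 (27.2 against 19.5 CPM, from 2 UMIs).

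The chromatin layer was read near the start sites of the members. A called peak lay within 2 kb of the start site given in the files for 11 of 36 members on each day (30.6%), against 62.2% of all genes at D0 and 61.8% at D5. These were Trf, Apoa1, Apoa2, Apob, Apoc1, Hp, Saa1, Saa2, Orm1, Cyp8b1 and Ass1, and Alb had none. By peak count at D0, Apob stood at percentile 4.12 of the genes with a peak, Hp at 4.92, Apoc1 at 10.9 and Apoa2 at 86.0. The peaks of Apoa1, Apob, Apoc1, Saa1, Saa2 and Orm1 did not cover the start site at D0, and that of Hp did. For Apoa2, 2 peaks between chr1:171222164 and 171226827 were summed, and whether either covered its start site was not tested. They were at 59.1 CPM of peak counts in pDC-like, 66.8 in cDC1-like, 76.1 in macrophage-like and 84.2 in T cell-like nuclei. The Ass1 peak covered the promoter shown above and was at 33.2 CPM of peak counts in called nuclei at D0 and 42.0 CPM at D5. The Cyp8b1 peaks lay from chr9:121914098 to 121916157 at D0, downstream of the start site and not over the promoter shown. They were at 15.6 CPM of peak counts in cDC1-like nuclei at D0, between 9.59 and 12.7 CPM in 3 unnamed clusters, at 9.24 CPM in macrophage-like, 8.15 CPM in cDC2-like, 7.54 CPM in Ccr7+ DC-like and 1.72 CPM in pDC-like nuclei. The unnamed cluster with cDC1 and NK cell markers raised was among the 3, at 11.2 CPM. Peak counts are given without intervals, since a fragment can count at both of its ends.

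Other hepatocyte genes, a list of 91 genes set beside the members, held 205 CPM of free RNA at D0 and 131 CPM at D5, a log2 ratio of -0.64 (-0.81 to -0.48), and 182 and 135 CPM in nuclei. Of them 5 reached 20 UMIs in free RNA. Apoc2, an activator of lipoprotein lipase, was highest, with 16 and 108 UMIs (1.69, 0.93 to 2.55), followed by Cp (ceruloplasmin) at 0.29 and Asl of the urea cycle at -0.46. Serpinc1 (antithrombin) was lowest, with 15 and 9 UMIs (-1.80, -3.18 to -0.52), and Cyp27a1, a sterol 27-hydroxylase, was at -0.75 with 186 and 232 UMIs. Together with Asl, at 116 and 177 UMIs, Cyp27a1 held most of the 529 and 708 UMIs of the list. The sum of the list therefore mostly shows these genes, and no sum without them was made. Summed markers of other cell types moved in free RNA too: neutrophil markers were at 30.3 and 164 CPM, endothelial markers at 110 and 30.2 CPM, and cholangiocyte markers at 37.2 and 67.3 CPM. Mitochondrial genes held 0.387% of free RNA at D0 and 0.184% at D5. The part of these shifts in the member ratios was not tested.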

How the data were processed

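The deposited files held raw counts of UMIs, and of cut sites for peaks. The authors had run Cell Ranger 6.0.2 for called barcodes and Cell Ranger ARC 2.0.2 for all barcodes, per the file headers. The submitters' processing notes name mm10. No deposited count had been normalised. The D5 joint matrix was matched to called barcodes by identical gene counts (27873 of 27873). At D0 all 16260 matches were also the same barcode. The called lists of the 2 days share 591 barcodes.

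UMIs were summed per gene over barcodes of 1 to 99 UMIs, over barcodes of 100 to under 500 UMIs that were not called, and over called nuclei, and scaled to CPM. Ratios have exact binomial (Clopper-Pearson) and levels exact Poisson or binomial intervals at 95% (scipy 1.17.1), for counting error only. Called means a ratio past 2-fold among genes with at least 20 UMIs. The alternatives were TMM factors (edgeR 4.0.16), no mitochondrial genes, other UMI limits, no minimum, no paralogs, and filtered nuclei (at least 1000 UMIs, at most 10% mitochondrial, Scrublet score under 0.2). Scrublet used an expected rate of 0.1 and removed 23.1% of filtered nuclei at D0 and 25.5% at D5. Clusters used 2000 variable genes, 30 components, 15 neighbours and a Leiden resolution of 1.0 (scanpy 1.11.5, leidenalg 0.10.2), and a class needed at least 3 markers raised 2-fold and 3 more than any other class. That rule was set with the clusters in view. The intervals and calls were tested on simulated pools of independent counts at the free RNA levels. Such pools hold neither the clustering of UMIs in single nuclei nor differences between libraries, so these were not tested.

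All 36 members are named, with counts and ratios in 3 fractions where free RNA held at least 10 CPM on either day (other members have values chosen after they were seen), as are the 3 highest and 3 lowest other hepatocyte genes past the minimum. Members and lists were chosen with earlier results of these data known.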

Additional observations from a re-analysis of the deposited data

Results flagged for a closer look

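Apoc1 moved in opposite directions, beyond its counting intervals, in free RNA (log2 ratio of D5 over D0 of -0.88) and in called nuclei (0.43). With TMM factors, which raise ratios by 0.44 and 0.50, both directions stayed, but the interval in free RNA then included 0 (-1.20 to 0.31). The difference was not tested.

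Trf also moved in opposite directions between classes of nuclei. Its log2 ratio was 0.44 in macrophage-like nuclei and 4.49 in endothelial-like nuclei, and -0.64 in cDC1-like and -0.87 in cDC2-like nuclei. The endothelial-like class held 30 nuclei at D0 and 4 at D5, and 2 of those 4 held 281 of the class's 282 UMIs of the 34 genes other than Trf and Ass1, with 223 of them in a nucleus that also held 286 UMIs of other hepatocyte genes. These differences were not tested.

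Barcodes of 500 UMIs or more that were not called enter no comparison, and hold member UMIs above the 3 counts that a count of 0 allows. At D0 these were 71 barcodes with 100 UMIs of the 34 genes, or 1697 CPM (1381 to 2063), where free RNA had 128 CPM. The UMIs came from 13 barcodes, 18 of them from 1 barcode, and without it the level was 1434 CPM. At D5 these were 1237 barcodes with 83 UMIs, or 111 CPM (88.0 to 137), spread over 69 barcodes.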

How the results depend on the processing

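No paired analysis was possible because each day was 1 library and no test was made. Depth limits the free RNA: 13 of 36 members reached 20 UMIs. Of 72 alternative values, 37 stayed within the main interval or count range. TMM factors turned the summed members to 0.16 in free RNA and to 0.44 in nuclei, and gave 1 member at least 2-fold higher and 3 lower in free RNA, beside 2.91% and 4.82% of all genes. Free RNA of 10 to 99 UMIs gave a median member of -0.012, with 1 higher and 1 lower, beside 3.60% and 12.8%; fewer UMIs were left. Without a count minimum 3 were higher and 18 lower, beside 9.29% and 32.0% of the 18963 genes with a UMI, where a gene with no UMI on 1 day counts as called. The alternatives in the rest of the paragraph were chosen after seeing the data. Barcodes of 100 to under 500 UMIs gave a median member of -0.39, 1 higher and 8 lower, with and without Trf and Ass1. Without Trf and Ass1 the sum was -1.03 in free RNA, -0.49 in barcodes of 100 to under 500 UMIs and -0.59 in nuclei (with TMM factors -0.59, 0.09 and -0.09), and -0.65 in nuclei when those with at least 50 UMIs of the 34 genes were also left out. The level in nuclei without Trf and Ass1 was 56.2% of free RNA at D0 and 76.2% at D5, 53.2% and 49.5% against barcodes of 100 to under 500 UMIs, and 53.2% and 68.9% without the nuclei of most member UMIs. The share of nuclei with a member UMI was 39.7% at D0 and 47.3% at D5 after the filter on UMIs and mitochondrial share, 33.5% and 41.7% also without doublets, 20.3% and 19.9% thinned to 1000 UMIs, 12.7% and 11.9% without Trf and Ass1, and 12.7% and 11.9% also without the nuclei of most member UMIs.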
